A study of Gallus gallus with 4 samples.

Results

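Proteasome and ubiquitin pathway genes were followed in the embryonic chick optic tectum, the part of the midbrain to which retinal axons grow. Members were all gene probes whose name in the files begins as a proteasome subunit or factor (PSMA to PSMG), an E2 (UBE2), a UBE3 ligase, a UBA, USP, CUL or UCHL gene or an F-box protein (FBXO, FBXL, FBXW), or whose description names a proteasome, a ubiquitin-conjugating or a ubiquitin-specific protein. This gave 123 probes for 97 members, of 40234 genes and unnamed features on the array. Of the 97 members, 60 were found by name and 37 by description alone, 88 had a gene symbol, and 77 rested on 1 probe. The brightest probe stood for each gene.

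Ubiquitin is a small protein that is attached to other proteins in a cascade of E1 activating, E2 conjugating and E3 ligase enzymes, and removed by deubiquitinases. Chains of ubiquitin send proteins to the 26S proteasome, in which a 19S cap with a ring of ATPases unfolds the substrate and feeds it to the 20S core, where it is cut. Other chains act in signalling and repair, and in the nervous system the pathway is known for protein quality control, axon growth and the turnover of synaptic proteins.

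RNA came from optic tecta of Gallus gallus embryos that were bisected either along the anteroposterior or along the mediolateral axis, with 60 tectal pieces pooled per channel, and was hybridised to 4 two-colour arrays. The groups were posterior against anterior tectum at Hamburger-Hamilton stage HH35, posterior against anterior at HH37, and medial against lateral tectum at HH30 and at HH35. All embryos were incubated at 37 degrees, no group carried a treatment or an allele, and tissue of many embryos was mixed in each pool. Each group is 1 array with no biological replicate, technical replicate or dye swap, so a difference on 1 array has no replicate check, and a gene's own dye effect cannot be told apart from a difference between the pools.

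Ratios are log2 of Cy5 over Cy3, which is posterior over anterior on the anteroposterior arrays. On the mediolateral arrays the labels put medial tectum in Cy5, while the authors' deposited ratio of medial over lateral runs with Cy3 over Cy5, so that those values are given by channel and carry no side. Repeats of a control spot within an array varied with a median SD of 0.128 to 0.160 on the log2 scale. Median foreground was 194 in Cy5 and 229 in Cy3 on the anteroposterior array at HH35, and 99 and 107 at HH37, the dimmest array. In Cy5 41.2% to 59.5% of gene probes stood well above background, against 63.2% to 79.4% in Cy3. Of 15 genes listed for the tectum, 9 were measured on both anteroposterior arrays, EPHA3, GATA2, GATA3, LHX1, LHX9, MEIS2, PAX3, PAX7 and TFAP2B. Across 22337 features measured on all arrays, the ratios of the anteroposterior array at HH37 and the mediolateral array at HH35 correlated with Pearson r = 0.63, above the 0.44 between both anteroposterior stages. These arrays share the dye order and the probes, and features are not independent replicates.

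A member was taken as measured where at least 1 channel stood 2.6 background SD above background. This held for 93 members on the anteroposterior array at HH35, 89 at HH37, 91 on the mediolateral array at HH30 and 94 at HH35, and for 88 on all arrays. TC206172, an unnamed feature, was measured on no array. Measurement through Cy3 alone, the anterior pool on the anteroposterior arrays, applied to 4 members at HH35 and 17 at HH37, and none through Cy5 alone. The computed ratios of those 17 lay between -0.40 and 0.19, and none was past 1.5-fold in ratio at HH37. The counts of levels between stages, given further below, do include such members.

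Most members lay on the anterior side. The median ratio of members was -0.23 at HH35 and -0.34 at HH37, against -0.01 and -0.02 over all measured features. Features of the same brightness as the members had medians of 0.02 at HH35 and -0.16 at HH37, so that a part of the shift at HH37 was shared by bright features in general. Ratios were below 0 for 72 of 93 members at HH35 and 73 of 89 at HH37. At both stages 58 of 89 members were below 0, or 65.2%, against 34.9% of all features. These counts include members that were measured through the anterior channel alone. With both channels required, 68 of 89 members were below 0 at HH35, or 76.4%, against 48.5% of all features, and 58 of 72 at HH37, or 80.6%, against 47.4%. At both stages it was then 46 of 72, or 63.9%, against 31.0%. Of the 89 members measured at both stages, 6 were above 0 at both, or 6.74%, against 32.8% of all features. Among them were FBXO30, TC223390, USP2, USP31 and USP49. A lean toward Cy3 was not limited to the anteroposterior arrays. On the mediolateral array at HH35 75 of 94 members were below 0, or 79.8%, against 52.6% of all features. In pooled tissue, fewer cells of a type and less RNA per cell cannot be told apart.

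The plot of ratios by class shows the spread of single members around these medians.

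**Figure D1:**
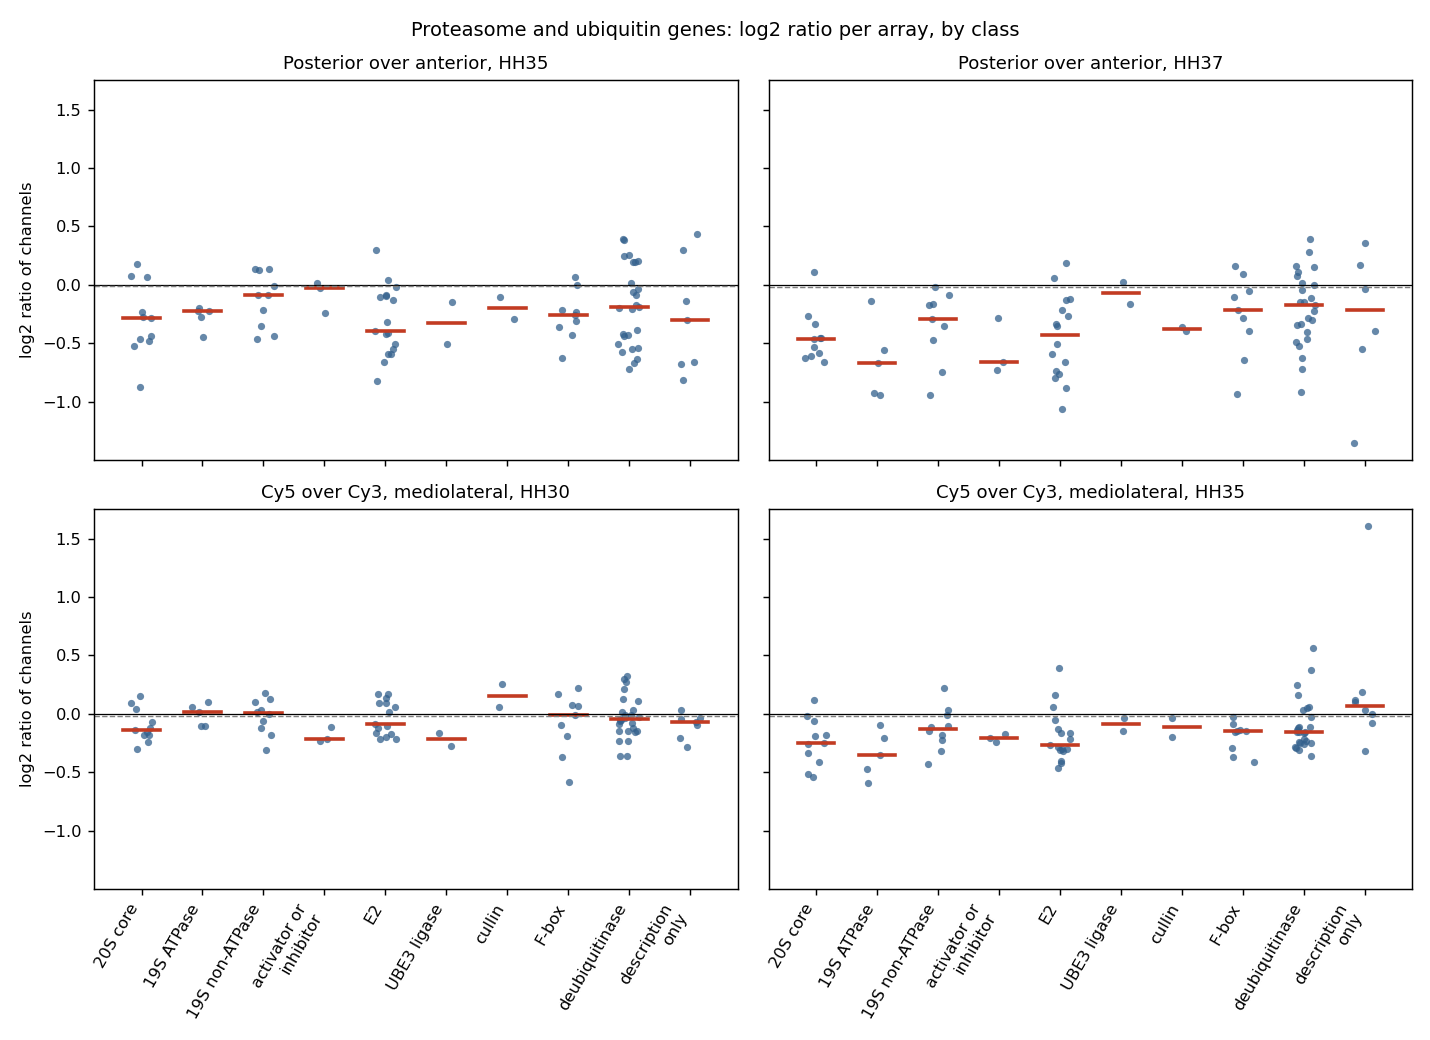
Each point is 1 member of a class with at least 2 members, plotted by class on the x axis and by its log2 ratio on the y axis, with 1 panel per array. Red bars are class medians, the solid line is 0 and the dashed line the median of all features. On the anteroposterior arrays (top) most points lie below 0, toward the anterior pool, and on the mediolateral arrays (bottom) they lie closer to 0.

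By a fold of 1.5, 12 of 93 members at HH35 were higher in the anterior pool, or 12.9%, where 6.03% of all features were and 8.08% differed in either direction. At HH37 it was 24 of 89, or 27.0%, against 9.92% of all features, and 11.4% in either direction. No member was 1.5-fold higher in the posterior pool at either stage, against 2.05% and 1.51% of all features. By a fold of 2, the count was 0 at HH35 and 2 at HH37, UBE2R2 at -1.06 and TC194576 at -1.35. The share of all features past 2-fold is not given here, so this count is not set against it.

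Both anteroposterior stages were fitted together with limma, with 1 coefficient per axis over all 30301 features measured on at least 2 arrays. Of 92 members fitted, 8 passed a Benjamini-Hochberg adjusted p of 0.05, all higher in the anterior pool and none in the posterior, or 8.70% of members. Over all features 2.75% passed, 2.61% on the anterior side and 0.139% on the posterior. At an unadjusted p under 0.05 there were 43 of 92 members, against 23.3% of all features. The fitted coefficient was below 0 for 79 of the 92 members, against 15569 of the 30301 features. The same count over all features stands beside the counts of coefficients below 0 given by class further below. These p-values measure only the spread among these 4 arrays, with both stages of an axis taken as repeats, and not the spread between pools of other embryos. For each feature limma drew that spread toward a value shared by all features, so that the SEs given are partly borrowed from other features.

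The 8 calls depended on the processing. Plain background subtraction and the deposited value table gave 0 calls for members and for every feature, although all 8 kept their direction. Median centring in place of loess gave 35 members, or 38.0%, but it also called 14.2% of all features. The members found by name alone held 4 calls among 60, against 2.75% of all features. No filter on dim probes gave 5 members, or 5.15%, against 1.09% of all features. Without the anteroposterior array at HH35 the count was 14, or 15.4%, against 5.997% of all features. Without that at HH37 it was 2, or 2.17%, against 1.80%, and without the mediolateral array at HH30 it was 5, or 5.43%, against 2.08%.

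Marker genes of maturing neurons lay on the same side. Of 20 listed, 12 were measured, 7 passed the same limma test on the anterior side (CNTN1, DCX, ELAVL4, MAP1B, NEFL, NEFM and SYT1), and the list's median ratio was -0.55 at HH35 and -1.44 at HH37. Neural progenitor markers had a median of 0.65 at HH35 and -0.38 at HH37, with MSI1 passing on the posterior side, and markers of cycling cells had 0.26 and -0.24 with 0 of 20 passing. Of the 9 tectum genes, 5 passed on the anterior side (EPHA3, GATA3, LHX9, MEIS2 and TFAP2B) and 2 had coefficients above 0. The tectum list had medians of -0.47 at HH35 and -0.75 at HH37. For 5 blood genes the medians were 0.18 and 0.08, with HBBA at -1.68 and HBA1 at -1.33 at HH37. The part of these cell types in the ratios of the members was not tested.

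The 20S core is a barrel of alpha and beta subunits, of which the PSMA genes encode the outer and the PSMB genes the inner rings. All 11 measured core subunits had coefficients below 0 over both stages, with a median of -0.37, and class medians of -0.29 at HH35 and -0.47 at HH37. PSMA6, an alpha subunit, had a normalised intensity of 2429 in the posterior and 4451 in the anterior pool at HH35, and of 1447 and 2175 at HH37. Its posterior signal was the lower at both stages, with a coefficient of -0.73 ± 0.15 (SE, 2 arrays) and an adjusted p of 0.0333 by limma. On the mediolateral arrays PSMA6 stood at -0.30 at HH30 and -0.02 at HH35.

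The other core subunits did not pass. PSMA3, another alpha subunit, had ratios of -0.53 at HH35 and -0.61 at HH37, with a limma adjusted p of 0.0646. PSMB7, which carries one of the catalytic activities of the core, had 0.07 and -0.66, and PSMB3, a structural beta subunit, 0.07 and -0.34. The dimmer probe of PSMB3 lay on the other side at HH37, at 0.23, and that of PSMA3 was at -0.07 there. PSMA7 had -0.48 at HH35 and 0.11 at HH37, the only core subunit above 0 at HH37. Its dimmer probe was at 0.58 at HH37, so that both probes of the gene were above 0 at that stage, although with median centring the brighter one was at -0.25.

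The 19S ATPases, encoded by the PSMC genes, form the unfolding ring. All 5 were below 0 at both stages, with medians of -0.23 at HH35 and -0.67 at HH37, and 0 of 5 passed the limma test while 4 had an unadjusted p under 0.05. PSMC1 came closest, with intensities of 4396 posterior and 5982 anterior at HH35, 2295 and 4424 at HH37, and a limma adjusted p of 0.0541. PSMC5 had ratios of -0.23 and -0.67 and PSMC6 of -0.28 and -0.14.

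The PSMD genes encode the non-ATPase part of the 19S cap, its lid and some assembly chaperones. Of 10 fitted, 9 had coefficients below 0 and 0 passed, with class medians of -0.09 at HH35 and -0.30 at HH37. PSMD6, a lid subunit, had -0.44 at HH35 and -0.74 at HH37 with a limma adjusted p of 0.0559, and its dimmer probe had -0.78 and -0.62. PSMD7, a lid subunit with no catalytic activity, was at -0.01 at HH35 and -0.94 at HH37. PSMD12, a further lid subunit, had -0.47 and -0.16. PSMD1, the largest subunit of the cap, had 0.14 and -0.09, and PSMD14, the deubiquitinase of the lid, was at -0.09 at HH35 through its anterior channel alone and not measured at HH37.

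Among the regulators of the core, PSME3, a nuclear activator, had -0.24 at HH35 and -0.73 at HH37 with a limma adjusted p of 0.103. PSMF1, an inhibitor of the core, had 0.02 and -0.28. Over all proteasome subunits and factors, 28 of 29 coefficients were below 0, and the class median lay below that of equally bright features on every array, at -0.23 against 0.09 and -0.47 against -0.16 on the anteroposterior arrays.

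E2 enzymes held 3 of the 8 calls. Of 17 fitted, 16 had coefficients below 0, and class medians were -0.40 at HH35 and -0.43 at HH37. UBE2N and UBE2V1 act as a pair that builds ubiquitin chains through lysine 63, a kind used in signalling and repair. UBE2N had intensities of 6544 posterior and 10361 anterior at HH35 and of 2369 and 4109 at HH37, with a coefficient of -0.73 ± 0.14 and a limma adjusted p of 0.0309. UBE2V1, its partner without catalytic activity, had 4053 and 5948 at HH35 and 2849 and 5264 at HH37, with -0.72 ± 0.16 and an adjusted p of 0.0364 by limma.

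For both genes every posterior value lay below its anterior one. On the mediolateral arrays UBE2N had -0.09 and -0.30 and UBE2V1 -0.12 and -0.47 at HH30 and HH35, so that Cy3 was the brighter channel there too. UBE2H, a further E2, had 4296 posterior and 6463 anterior at HH35 and 617 and 1049 at HH37, with -0.68 ± 0.14 and a limma adjusted p of 0.0343.

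No other E2 gene passed. UBE2D2, an E2 that works with many ligases, had -0.83 at HH35 and -0.27 at HH37. UBE2R2, an E2 that works with cullin ligases, had -0.13 at HH35 and -1.06 at HH37. UBE2O, a large E2 that also acts as a ligase, had 0.30 and -0.74. UBE2L3, which passes ubiquitin to HECT and RBR ligases, had -0.09 and 0.06.

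Ligases were represented by few members. UBE3A, a HECT ligase that is imprinted in neurons of human and mouse, had -0.51 at HH35 and 0.03 at HH37, and UBE3B, a related ligase, -0.15 and, through the anterior channel alone, -0.16. CUL3 and CUL5, scaffolds of cullin ligases, had -0.10 and -0.39, and -0.29 and -0.36. ARIH1, an RBR ligase that works with cullin ligases and was found by its description, had intensities of 1623 posterior and 2601 anterior at HH35, 533 and 780 at HH37. It passed with -0.61 ± 0.14 and a limma adjusted p of 0.0471.

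F-box proteins choose the substrates of SCF ligases. Of 9 fitted, 8 had coefficients below 0 and 1 passed. FBXO11 had intensities of 1660 posterior and 2561 anterior at HH35 and of 569 and 1090 at HH37, with -0.78 ± 0.15 and a limma adjusted p of 0.0268. Its mediolateral ratios of -0.37 and -0.41 were also toward Cy3. FBXO30 lay on the other side of the anteroposterior axis at 0.06 and 0.16 and had the lowest ratio of all members on the mediolateral array at HH30, -0.58, but in the deposited value table, turned to Cy5 over Cy3, that ratio was 0.16. With median centring its anteroposterior ratios were -0.20 and -0.23, so that its side on the anteroposterior arrays depends on the scaling. The name class also held KDM2B, listed in the files as FBXL10, a histone demethylase with an F-box.

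Deubiquitinases were the largest class, with 20 of 26 coefficients below 0 and class medians of -0.19 at HH35 and -0.17 at HH37. USP10, which acts on p53 among other proteins, had 3323 posterior and 4735 anterior at HH35 and 711 and 1171 at HH37. It passed with -0.62 ± 0.14 and a limma adjusted p of 0.0458. USP7, a regulator of p53 and its ligase MDM2, had ratios of -0.39 and -0.92 and missed the threshold with an adjusted p of 0.0518 by limma. UCHL5, a deubiquitinase bound to the proteasome, had -0.44 and -0.22.

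Several deubiquitinases lay on the posterior side. USP2 had 0.38 at HH35 and 0.28 at HH37, USP49, which acts on histone H2B, 0.24 and 0.39, and USP31 0.25 and 0.15, with limma adjusted p-values of 0.212, 0.213 and 0.396. With median centring these became negative for USP49, at -0.02 and -0.01, for USP31, at -0.02 and -0.24, and for USP2 at HH37, at -0.10. USP49 was also above 0 on both mediolateral arrays, at 0.32 and 0.56. Ratios were above 0 on all 4 arrays for 3 of 88 members, USP31 and USP49 among them, against 16.9% of all features, and 34 of 88 were below 0 on all 4, against 16.6%. USP31 was instead below 0 on all 4 arrays with median centring, at -0.06 and -0.08 on the mediolateral arrays at HH30 and HH35. PAN2, listed under its older name USP52 and now known as a poly(A) nuclease, had 0.43 and -0.03.

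Of the 9 unnamed features, TC194576 had the lowest coefficient of all members, -1.08 ± 0.16 with a limma adjusted p of 0.0192. Its intensities were 3082 posterior and 5410 anterior at HH35 and 954 and 2433 at HH37. Its description names a 26S proteasome subunit of Caenorhabditis elegans, of which the match covers 4%, so that its place in the pathway is uncertain. For TC223390, described as similar to UBE2D2 over 81% of the protein, the ratios were 0.30 and 0.17. TC204054, with 7% covered, had -0.14 and 0.36.

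**Figure D2:**
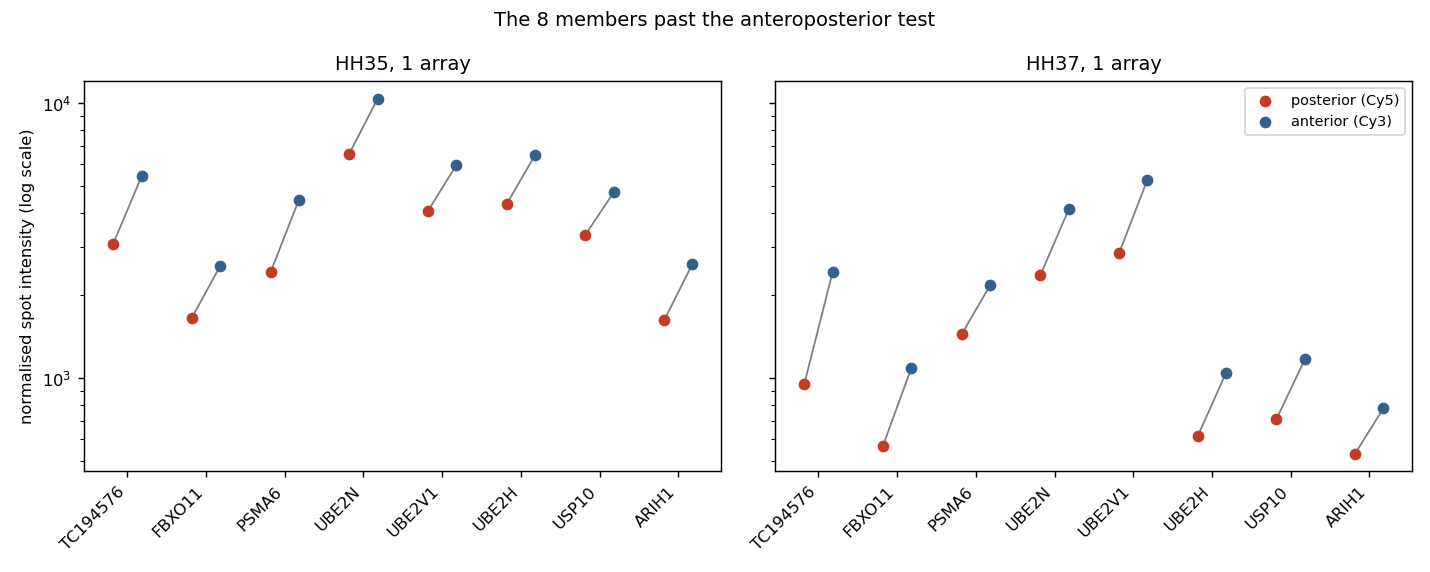
Normalised spot intensity on a log axis for the 8 members past the limma test, posterior pool (red, left) and anterior pool (blue, right) joined by a line, HH35 in the left panel and HH37 in the right. All 16 posterior values lie below their anterior partner.

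The calls were not separated from the dye order by the mediolateral arrays. On those arrays the ratios of the 8 called members lay between -0.47 and 0.03, against -1.35 to -0.51 on the anteroposterior arrays. The limma contrast of the 2 axes, in which a dye effect common to all arrays cancels, gave 0 calls among 92 members and 0.0% over all features. At an unadjusted p under 0.05 it held 13 members, against 8.26% of all features. TC194576 had the lowest contrast, -0.90 with an adjusted p of 0.373 by limma.

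Of the genes fixed for naming, among others UCHL1, UBA1, UBA3, PSMD4, PSMC4, FBXO2, USP9X, UBE2C and UBE2M had no probe named here. Further genes of the same families, 36 in all, are named in the files only by accession and lay outside the rule. Of 35 fitted, 29 had coefficients below 0 with a median of -0.31, and 0 passed by limma while 16 had an unadjusted p under 0.05. Closest were UBA2, a subunit of the E1 for SUMO, at -0.59 with a limma adjusted p of 0.0568, and CUL1, the scaffold of SCF ligases, at -0.61 with 0.0587. Of the SCF and cullin partners and the COP9 signalosome, 2 of 20 passed. These were SKP1, the adaptor that holds F-box proteins, with -0.76 and -0.58 and a limma adjusted p of 0.0356, and TCEB1, an adaptor of CUL2 and CUL5 ligases, with -0.78 and -0.84 and 0.0241. By limma, none of 46 other ligases, 13 other deubiquitinases, 9 APC/C genes, 19 VCP and shuttle factors or 4 ubiquitin-like genes passed. In that order 10, 2, 4, 4 and 1 had an unadjusted limma p under 0.05. Over all features 2.75% passed and 23.3% had such an unadjusted p.

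Between HH35 and HH37 the anteroposterior ratio of most members moved little. It was 1.5-fold lower at HH37 in 9 of 89 members, or 10.1%, where 8.99% of all features were, and 1.5-fold higher in 3, where 3.96% were. Both shares are near those of all features. The counts depended on the scaling, with 17 lower and 1 higher under median centring and 10 lower and 7 higher in the value table. The change on the log2 scale was -1.04 for UBE2O and -0.93 each for UBE2R2 and PSMD7, whose ratios at HH35 were 0.30, -0.13 and -0.01. The dimmer probe of UBE2O had -0.17 at HH35 and -1.06 at HH37, the same direction. UCHL3, a small deubiquitinase, went the other way, with intensities of 2482 posterior and 4092 anterior at HH35 but 788 and 704 at HH37, a change of 0.88. With median centring UCHL3 was at -0.24 at HH37 and did not change sides. PSMA7 changed by 0.60 and USP30, a deubiquitinase of mitochondria, by 0.59, and the dimmer probes of USP30 disagreed at HH35, at 0.03 and -0.43.

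**Figure D3:**
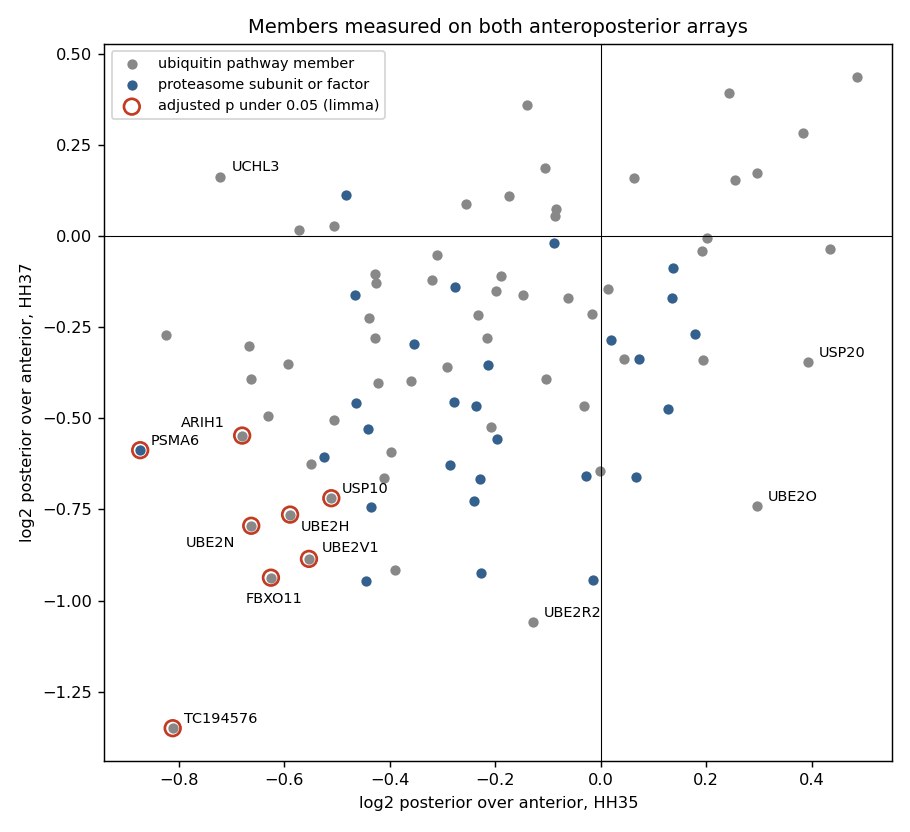
Log2 ratio of posterior over anterior at HH35 (x axis) and at HH37 (y axis) for the 89 members measured on both arrays, proteasome subunits and factors in blue, the rest in grey, and members past the limma test ringed in red. The ringed members lie together at the lower left, anterior at both stages, while UBE2O and USP20 lie to the right of 0 at HH35 and below 0 at HH37, and UCHL3 the other way.

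Along the mediolateral axis few members differed by 1.5-fold between the channels, but most ratios lay below 0, toward Cy3. At HH30 57 of 91 members were below 0, or 62.6%, against 53.0% of all features. At HH35 it was 75 of 94, or 79.8%, against 52.6%. With both channels required it was 63.6% at HH30 and 80.7% at HH35, against 49.1% and 49.3% of all features. Median ratios were -0.07 at HH30 and -0.16 at HH35, against -0.02 over all features on both arrays and -0.00 and -0.07 over features of the same brightness. At HH30 1 of 91 members was 1.5-fold higher in Cy5 and 0 in Cy3, where 1.48% and 1.19% of all features were, 2.67% together. With median centring and with the value table it was 0 in Cy5 and 1 in Cy3, so that this direction depends on the processing. At HH35 it was 2 of 94 in Cy5 and 1 in Cy3, against 1.43% and 0.788%, 2.22% together. At HH35 those in Cy5 included TC191315, and the one in Cy3 was PSMC1 at -0.60.

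TC191315, a feature with 5% of a proteasome-like protein covered, was measured on that array alone, at 1.61. In the authors' deposited value table, turned to Cy5 over Cy3, it had -1.30, so that its direction is not settled. The limma fit over both mediolateral stages called 0 of 92 members, while 6 had an unadjusted p under 0.05, against 0.0066% and 7.75% of all features. FBXO30 at -0.44 ± 0.15 and USP49 at 0.44 ± 0.15 were among those 6, with limma adjusted p-values of 0.553 and 0.542.

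Between HH30 and HH35 the mediolateral ratio was 1.5-fold lower in Cy5 at the later stage in 1 of 90 members and higher in 0, against 3.82% and 2.04% of all features. The one was USP15, at 0.28 at HH30 and -0.31 at HH35, where it was measured through Cy3 alone. With both channels required the count was 0. USP24, a large deubiquitinase, differed by -0.51 and PSMC5 by -0.54, and USP30 by 0.40, TC223390 by 0.39 and USP2 by 0.39. USP20 stood at 0.30 and 0.06 on these arrays and USP44, a deubiquitinase of the mitotic checkpoint, at -0.36 and -0.16.

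Levels of the whole tectum were taken as the mean log2 intensity of both channels, quantile normalised between arrays. Each of HH30 and HH37 has 1 array, so that stage and array cannot be told apart, and the only measure of spread is the gap between both HH35 arrays. Taken with its sign, that gap had a median of 0.44 over the members, higher on the anteroposterior array, against 0.11 over all features. Taken without its sign, the median gap was 0.56 for the members and 0.60 for all features. A member was therefore counted only where it lay 1.5-fold to the same side of both HH35 arrays.

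By this count more members lay higher at HH30 and lower at HH37. At HH30 29 of 90 members, or 32.2%, were higher than on both HH35 arrays and 1 was lower, against 12.0% and 5.89% of all features. At HH37 30 of 89, or 33.7%, were lower and 5 were higher, against 13.9% and 13.1%. These counts include members measured through 1 channel alone. With both channels required, 28 of 80 members were higher and 1 lower at HH30. At HH37 26 of 71 were then lower and 4 higher. The share of all features under that requirement is not given here. The median difference from the mean of the HH35 arrays was 0.50 at HH30 and -0.52 at HH37, and equally bright features had -0.01 and -0.21.

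Proteasome genes made up 15 of the 29 members higher at HH30. By class the median difference at HH30 was 0.47 for the 20S core, 1.40 for the 19S ATPases and 1.25 for the other 19S subunits, against 0.17 for deubiquitinases. At HH37 it was -0.86 for the core, -0.98 for the ATPases, -0.48 for the other 19S subunits and -0.30 for deubiquitinases. Features as bright as the deubiquitinases had -0.01 at HH30 and -0.21 at HH37. The deubiquitinase median changed sign with the HH35 array used, at 0.65 (mediolateral) and -0.07 (anteroposterior) for HH30 and 0.05 and -0.70 for HH37. Medians of the core, the ATPases and the other 19S subunits kept their sign against either array. PSMC6 had log2 levels of 13.26 at HH30, 10.34 and 10.99 on the mediolateral and anteroposterior arrays at HH35, and 9.68 at HH37. PSMC1 had 13.85 at HH30, 11.13 and 12.32 at HH35 and 11.64 at HH37, and PSMD12 had 12.16, 9.93 and 9.82, and 9.31.

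For these genes the HH30 level lay above all other arrays. UBE2D2 followed the same order, with 12.45 at HH30, 10.06 and 10.46 at HH35 and 9.24 at HH37. CUL3 had 10.86 at HH30, 9.71 and 9.48 at HH35 and 7.95 at HH37. USP47, a deubiquitinase of the base excision repair pathway, had the lowest difference at HH37, -1.90, and CUL3 and UBE3B were among the 4 lowest at -1.65 and -1.47. UBE3B was measured at HH37 through the anterior channel alone. PSMB7 was the 1 member lower at HH30 than on both HH35 arrays, at 11.45 against 12.06 and 12.88.

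A few members ran the other way. USP2 had log2 levels of 7.32 at HH30, 9.71 and 7.34 at HH35 and 9.92 at HH37, and TC223390 7.65, 9.58 and 7.47, and 10.17. The anteroposterior array at HH35 lay below the mediolateral one by -2.37 for USP2 and -2.11 for TC223390. For both, that gap was larger than the difference of 1.39 and 1.65 between HH37 and the mean of the HH35 arrays. PSMD6 had 9.53 at HH30, 7.64 and 8.33 at HH35 and 9.31 at HH37, high at both ends.

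Markers of cycling cells were 1.57 higher at HH30 in the median of 19 and differed by -0.43 at HH37 in the median of 17, those of neural progenitors 1.10 and -0.47, and those of maturing neurons 0.08 and -0.93. Markers of the meninges had 1.93 at HH30, with 5 of 5 above 0, and 0.56 at HH37 with 3 of 4 above 0. Tectum genes had 0.93 at HH30, with 7 of 9 above 0, and -0.94 at HH37 with 9 of 9 below 0. The medians of lists for blood, glia, muscle and cartilage, and microglia and leukocytes ran the other way. They were -0.87, -0.82, -0.55 and -0.14 at HH30 and 0.43, 0.38, 0.16 and 0.67 at HH37. Genes within these lists were split. In that order 3 of 5, 3 of 4, 4 of 6 and 4 of 7 were below 0 at HH30. At HH37 3 of 5, 2 of 4, 4 of 7 and 5 of 7 were above 0. Endothelium had 0.39 and -0.05. Against single HH35 arrays, maturing neurons at HH30 had 0.74 (mediolateral) and -0.44 (anteroposterior). Blood at HH30 had -0.79 and 0.69 in that order, and microglia and leukocytes -0.16 and 0.22. Glia at HH37 had 0.75 and -0.38, and muscle and cartilage 0.20 and -0.07. The sign of these medians therefore changed with the HH35 array used. The part of these cells in the levels of the members was not tested.

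**Figure D4:**
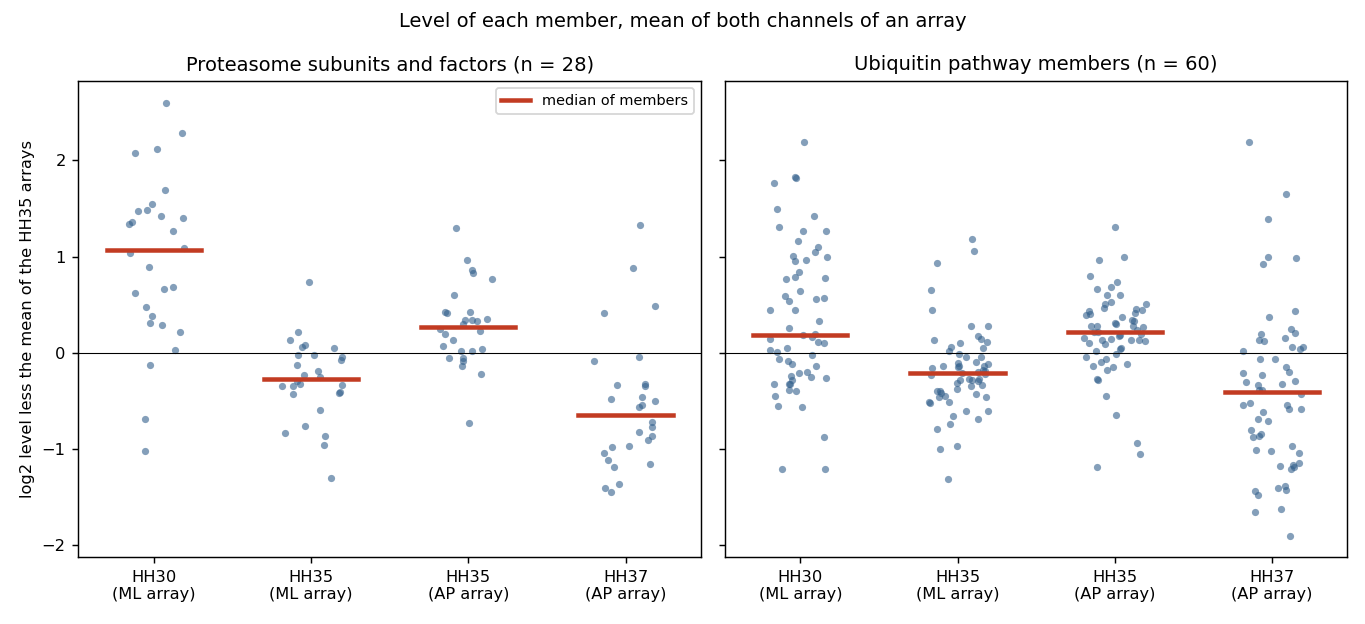
Log2 level of each member less its mean over both HH35 arrays (y axis), by array in order of stage (x axis), proteasome subunits and factors on the left and ubiquitin pathway members on the right, each point 1 member and red bars medians. The HH30 points of the proteasome genes lie mostly above 0 and the HH37 points mostly below, and the HH35 arrays differ from each other as well.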

How the data were processed

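Per the file headers, the 4 spot tables give raw linear intensity in both channels, and the deposited columns also hold the percent of saturated pixels. No member spot used had a saturated pixel. Agilent Feature Extraction is named in the submitters' processing notes. The columns are nevertheless those of GenePix, and the planned columns were replaced by foreground and local background. A linear ratio for every probe comes from the authors' deposited table and its log2 from the deposited value table, and both run against Cy5 over Cy3. Turned, the value table had a Pearson r of 0.724 to 0.848 against the ratios of this work over 41824 probes, with a median of -0.13 on the anteroposterior array at HH37 and of 0 to -0.02 elsewhere. Its normalisation is not given in the sources used here.

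Background was corrected by normexp (offset 50), and ratios were normalised by loess (span 0.3) in limma 3.58.1 under R 4.3.3. Levels were quantile normalised. Symbols came from the files and a table of assembly GRCg7b, for names only, which named 10302 of 42034 probes, and 43 had a name and an accession that disagreed, of which members kept the name in the files and the others stayed unnamed. The match of descriptions ignored case, and 89 members remain in lower case only. Same-brightness medians used 20 bins. The limma fit over 30301 features had 2 residual degrees of freedom, with p-values adjusted by Benjamini-Hochberg, and stage differences are part of its residual. Spots under the limit entered as computed. The fit was tested on simulated data (30301 genes, anteroposterior comparison), where it found 88% of the 100 genes given a log2 change of 1, 100% of the 100 given a change of 2, and 15 unchanged genes. The simulated spread was drawn from the fit's own variance estimate, with no dye effect and no stage difference. Smaller changes, as in the called members other than TC194576, were not simulated, so the recovery does not bear on those calls.

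The genes named followed a rule: per axis the 6 highest and 6 lowest members by mean ratio, per array the 3 highest and 3 lowest, every member past the test, per axis the 3 greatest rises and 3 greatest falls between stages, the 4 highest and 4 lowest by change of level of HH37 and of HH30 against HH35, and a set of fixed genes, 49 members in all, a few of which are not reported here. KDM2B, TC206172 and, among genes that are no members, SKP1 and TCEB1 are named outside it, chosen after their values were seen. UBA2 and CUL1, also no members, belong to the fixed genes, but were picked from them for lying closest to the threshold. Members, lists and the rule were chosen with earlier results of these data known. Alternatives covered background, normalisation, value table, dim probes, choice of probe, definition of members, variance model, fold and each array left out; leaving unmeasured spots out of the fit and same-brightness medians were added after the data were seen. The number of arrays limits the precision. Python 3.11.15, pandas 2.3.3, numpy 2.4.6 and matplotlib 3.10.9 were used.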

Additional observations from a re-analysis of the deposited data

Results flagged for a closer look

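USP20, a deubiquitinase, lay on opposite sides at both anteroposterior stages, at 0.39 at HH35 (1072 posterior, 817 anterior) and -0.35 at HH37 (415 posterior, 527 anterior), each by more than 2 SD of the control spots. The change from HH35 to HH37 was -0.738 on the log2 scale. It rests on 1 probe and 1 array per stage, and the difference was not tested.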

How the results depend on the processing

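With 1 array per group, no replicate check exists. The limma fit has 2 residual degrees of freedom per feature, with the spread drawn toward a value shared by all features. Members called over both anteroposterior stages numbered 8, and 0 with plain background subtraction, 0 with the value table, 35 with median centring, 5 with no filter on dim probes, 4 with members by name only, and 2 to 14 when 1 array was left out. The median ratio of members with median centring was -0.45 at HH35 and -0.62 at HH37 on the anteroposterior arrays. Counts past 1.5-fold on those arrays were 12 and 24, and 29 and 47 with median centring, and 0 and 2 at 2-fold. For fold counts in this section under another processing or at 2-fold, the share of all features is not given. They are therefore not results about the members. Under median centring the limma calls over all features rose as well, from 2.75% to 14.2%. With members by name only they were 5 of 60 at HH35 and 15 of 58 at HH37, all higher in the anterior pool. Of all features 6.03% and 9.92% were 1.5-fold higher there. On the mediolateral array at HH30 the count was 1, against 2 with plain subtraction and 0 at 2-fold, and at HH35 it was 3, against 5 with the value table and 1 at 2-fold. Changes of the anteroposterior ratio between stages numbered 12, and 7 of 58 by name only and 1 at 2-fold. Those of the mediolateral ratio numbered 1, and 4 with plain subtraction, 5 with the value table, 2 with no filter, 0 with both channels above background and 0 at 2-fold. Level counts were 30 at HH30, against 17 at 2-fold, and 35 at HH37, against 10 at 2-fold and 23 of 58 by name only. TC191315 had -1.30 in the value table on the mediolateral array at HH35. In the other alternatives run, total counts stayed within 1.5 times and median ratios within the spread of the control spots, but directions did not always. The 9 lower and 3 higher anteroposterior changes became 17 and 1 with median centring, 10 and 7 with the value table, and 10 and 6 with plain subtraction, the 0 members 1.5-fold higher in the posterior pool became 1 at each stage with the value table, the 5 members of higher level at HH37 became 2 with median centring, and the 1 member past 1.5-fold on the mediolateral array at HH30 lay in Cy3 in place of Cy5 with median centring and with the value table. Of 1145 values of single members 37 had the opposite sign, 1 of them past 1.5-fold. Where fewer members, a stricter fold or fewer arrays do not account for a difference, the cause was not tested. Spots dim in Cy5, 17 members at HH37, limit the ratios there. No paired analysis was possible because each group holds 1 array.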
